A study of Homo sapiens with 8 samples.

Results

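The genes described here are transcriptional targets of the tumour suppressor p53, chosen by name with GDF15 at their head. Of 10 listed genes, 9 had a probe set that the platform annotation assigned to that gene alone, out of 22395 genes named on the array, and all 9 lay above 2.57 (log2), the median of all deposited values, on all 8 arrays. These were GDF15, GADD45A, CDKN1A, MDM2, ZMAT3, SESN1, BBC3, TP53I3 and TP53INP1, with 1 probe set each; FDXR was not analysed here. RNA had been measured in U-CH1 and MUG-Chor1, a pair of established lines from human chordoma, a tumour of the axial skeleton that expresses the notochord transcription factor brachyury. In each line 1 array came from cells that received recombinant human TNF-α at 10 ng/mL for 1 week with 3 additions in that week, and 3 arrays came from cells kept without it; all grew as monolayers on gelatin in medium with fetal bovine serum. The genotype of the p53 pathway in either line is not given in the labels.

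p53 is a transcription factor that is kept scarce by the ubiquitin ligase MDM2 and accumulates after DNA damage and other stresses. It then switches on genes for cell cycle arrest, DNA repair, death and metabolism, and MDM2 itself, which closes a negative feedback loop. Several of these genes answer to other factors too: GDF15, GADD45A and SESN2 are also known targets of ATF4 and CHOP, the transcription factors of the integrated stress response, and NF-kB, the main effector of TNF, can act on the same promoters. In chordoma, loss of CDKN2A, which encodes an inhibitor of MDM2 in 1 of its reading frames, is a common lesion.

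Array medians lay between 2.52 and 2.63 (log2). Over the 16986 genes tested, controls of 1 line correlated with each other at 0.959 to 0.981, with MUG-Chor1 ctrl 3 the less alike of its line. TBXT, the brachyury gene, read 8.80 on the U-CH1 TNF array, against 9.14 to 9.75 on its controls. It read 7.51 on the MUG-Chor1 TNF array, against 9.40 to 9.46 on its controls. TBXT thus lay above 2.57 on every array, and on each TNF array it lay below all controls of that line. The other chordoma markers are given further below. CDKN2A lay below 2.57 on all 8 arrays, with values of 1.31 to 2.08. The labels do not say whether the controls were separate cultures, so p-values measure the spread between these samples only, which may be technical, and each TNF array has no replicate and was taken to vary like the controls.

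To show the regulatory sequence behind these genes, the 250 bases before the transcription start were read from RefSeq (GRCh38.p14) for 7 of the 9 genes, in 13 windows, and searched on both strands. GADD45A and TP53INP1 were not searched, so the counts of matches do not cover them. The search covered the p53 half-site consensus, a full p53 site of 2 such half-sites up to 13 bases apart, the NF-kB consensus, the ATF4 composite element TGATGNAA, AP-1 (TGANTCA) and the TATA box TATAAA. Full p53 sites, NF-kB sites and ATF4 elements matched in 0 of the 13 windows, against 0.0259%, 5.21% and 3.16% of 34788 promoters. The stretches with a match are given 5′ to 3′ with the match in capitals: the TATA box of GDF15, the AP-1 match at the internal start of MDM2, which is the start that p53 is known to use, and 30 bases around the only p53 half-site, at SESN1.
GDF15 (chr19:18385908-18386157, + strand): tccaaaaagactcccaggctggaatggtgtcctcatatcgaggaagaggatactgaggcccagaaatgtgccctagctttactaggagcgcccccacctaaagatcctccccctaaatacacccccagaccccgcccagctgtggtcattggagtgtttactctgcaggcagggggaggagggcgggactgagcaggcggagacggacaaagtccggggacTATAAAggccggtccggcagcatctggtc
MDM2 (chr12:68808774-68809023, + strand): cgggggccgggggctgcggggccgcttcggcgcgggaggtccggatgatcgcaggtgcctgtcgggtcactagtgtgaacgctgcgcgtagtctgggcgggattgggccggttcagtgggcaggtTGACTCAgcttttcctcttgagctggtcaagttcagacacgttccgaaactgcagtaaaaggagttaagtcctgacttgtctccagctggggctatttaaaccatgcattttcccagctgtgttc
SESN1 (chr6:109009018-109009047, minus strand): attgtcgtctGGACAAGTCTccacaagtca
The TATA box lay at -29 to -24 from the GDF15 start, a motif held by 10.8% of promoters. AP-1 matched in MDM2, at -125 to -119 from this start, and in BBC3 and is held by 6.59% of promoters. The SESN1 half-site lay at -49 to -40 from 1 of its starts, and 5.59% of promoters hold one. These are letter matches in a short window, and p53 sites of several of these genes are known to lie outside it or to depart from the consensus.

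Across both lines 2 of the 9 genes rose with TNF, GDF15 and GADD45A, and none fell. The question was which p53 targets a week of TNF changed on average over both lines, and it was tested in limma with terms for TNF and for the line. Such a fit gives a common effect and does not test whether the lines changed alike. GDF15 rose 5.30-fold (log2 difference 2.40 ± 0.25, SE; adjusted p = 0.000986) and GADD45A 2.57-fold (1.36 ± 0.21, SE; adjusted p = 0.00943). Of all genes tested, 1.55% rose and 0.93% fell by the same rule, 2.48% in all. The other 7 genes had differences of -0.21 to 0.53 with adjusted p of 0.479 to 0.935. The median difference of the 9 genes was 0.32, against 0.05 over all genes tested.

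**Figure D1:**
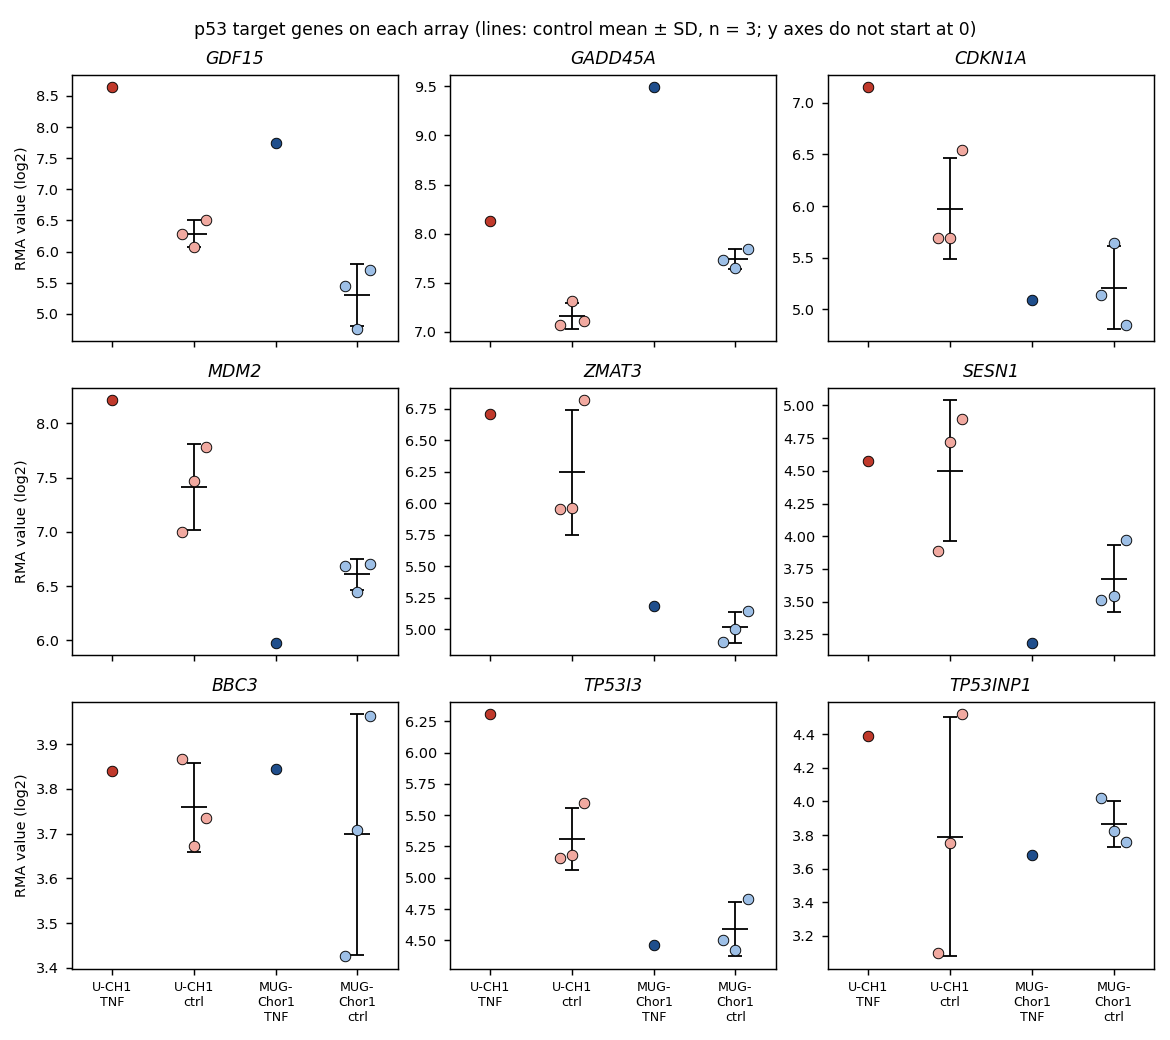
RMA values (log2) of the 9 p53 target genes on each of 8 arrays, with U-CH1 in red and MUG-Chor1 in blue, darker points for the TNF array and paler ones for the 3 controls of each line; horizontal lines with bars are control means ± SD. GDF15 and GADD45A lie above their controls in both lines, while CDKN1A, MDM2 and TP53I3 lie above them in U-CH1 only.

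GDF15 encodes a secreted stress cytokine of the TGF-β superfamily that acts on the brainstem receptor GFRAL and is used as a serum marker of disease. It read 8.65 on the U-CH1 TNF array, against 6.28, 6.07 and 6.50 on U-CH1 ctrl 1 to 3. In MUG-Chor1 it read 7.75 on the TNF array, against 5.45, 4.75 and 5.70 on the controls. Both TNF arrays stood above all 6 controls of either line. GDF15 rose by 2.36 ± 0.37 (SE; adjusted p = 0.0131) in U-CH1, that is 5.15-fold. It rose by 2.44 ± 0.37 (SE; adjusted p = 0.00481) in MUG-Chor1, or 5.44-fold. The TNF effect in MUG-Chor1 minus that in U-CH1 was 0.08, with a 95% interval of -1.07 to 1.23. Differences of the effects within that interval are compatible with these values, so equal effects were not shown. In RNA from a whole culture, more cells that express a gene and more RNA per cell cannot be told apart.

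GADD45A encodes a small stress protein that binds the kinases and clamp proteins of cell cycle arrest and DNA repair. It read 8.13 on the U-CH1 TNF array, against 7.06, 7.31 and 7.10 on the U-CH1 controls. In MUG-Chor1 it read 9.50 on the TNF array, against 7.73, 7.65 and 7.85 on the controls. Each TNF array lay above all controls of its own line, and the controls were close together in both. The difference passed in MUG-Chor1 (1.76 ± 0.26, SE; 3.38-fold; adjusted p = 0.00451) and did not in U-CH1 (0.97 ± 0.26, SE; 1.95-fold; adjusted p = 0.133), which is also the value across both lines without the MUG-Chor1 TNF array. The difference between those effects was 0.79, with a 95% interval of -0.02 to 1.61 (adjusted p = 0.701). Its paralogs, which share the stress-sensor fold, were measured as well: GADD45B had differences of 0.21 in U-CH1 and -0.34 in MUG-Chor1 and GADD45G of -0.67 in U-CH1 and 0.34 in MUG-Chor1, with adjusted p of 0.471 to 0.916.

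Among these 9 genes the counts per line were short. In U-CH1, GDF15 rose and none fell, where 0.913% of all genes tested rose and 0.359% fell (1.27% in all). In MUG-Chor1, GDF15 and GADD45A rose and none fell, where 1.47% rose and 1.41% fell (2.88% in all). In U-CH1 all 9 differences were above 0, with a median of 0.79 beside 0.04 over all genes tested. In MUG-Chor1 4 were above 0 and 5 below, with a median of -0.12 beside 0.06. Counted by position, the U-CH1 TNF array was above all 3 of its controls for 5 of the 9 genes and below all 3 for none, against 30.8% and 23.4% of all genes. The MUG-Chor1 TNF array was above for 3 and below for 3, against 35.3% and 23.9%. Only GDF15 and GADD45A among the 9 were above in both lines, a pattern of 15% of all genes, and none was below in both, as were 8.85% of all genes.

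**Figure D2:**
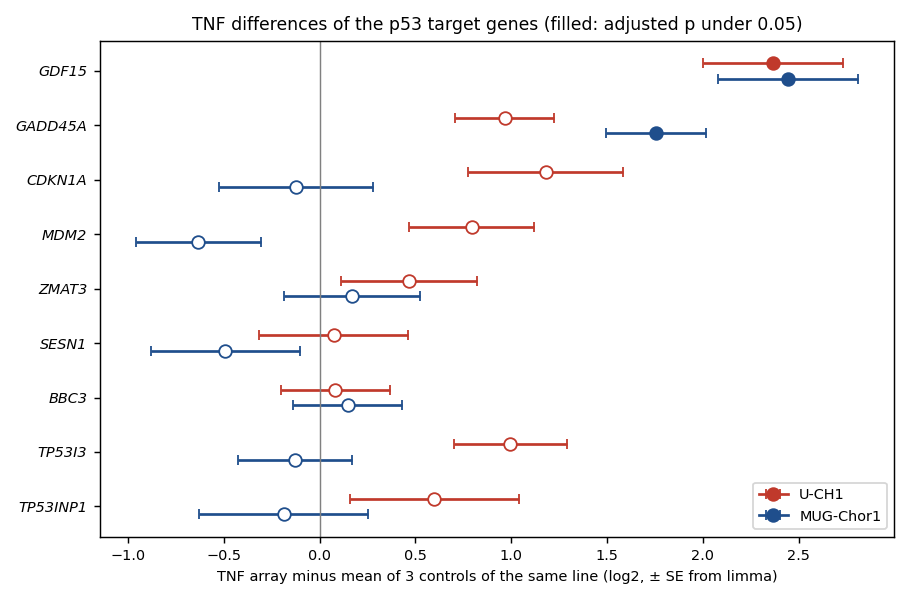
TNF array minus the mean of the 3 controls of the same line (log2, horizontal axis) for each of the 9 genes, with U-CH1 in red above MUG-Chor1 in blue; bars are SE from limma and filled points have an adjusted p under 0.05. GDF15 sits at 2.36 and 2.44, while the MDM2 points sit at 0.79 (U-CH1) and -0.63 (MUG-Chor1).

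The classic arrest and feedback genes had unlike values in the lines. CDKN1A encodes p21, the inhibitor of cyclin-dependent kinases through which p53 stops the cell cycle. It read 7.16 on the U-CH1 TNF array, against 5.70, 5.70 and 6.54 on the U-CH1 controls, and 5.09 on the MUG-Chor1 TNF array, against 5.14, 5.64 and 4.85 on the MUG-Chor1 controls. The U-CH1 TNF array was the highest of all 8, and the MUG-Chor1 one lay among its controls. Neither difference passed, with 1.18 ± 0.40 (SE; adjusted p = 0.272) in U-CH1 and -0.12 ± 0.40 (SE; adjusted p = 0.961) in MUG-Chor1.

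MDM2 encodes the ligase that marks p53 for destruction. It read 8.21 on the U-CH1 TNF array, against 6.996, 7.47 and 7.78 on the U-CH1 controls. In MUG-Chor1 it read 5.98 on the TNF array, against 6.68, 6.45 and 6.70 on the controls. The TNF array was the highest of its line in U-CH1 and the lowest of its line in MUG-Chor1. The U-CH1 difference of 0.79 ± 0.33 (SE; adjusted p = 0.388) did not pass, nor did the MUG-Chor1 one of -0.63 ± 0.33 (SE; adjusted p = 0.481). MDM4, the partner of MDM2 that binds and silences p53, had differences of -0.72 in U-CH1 (adjusted p = 0.322) and -0.08 in MUG-Chor1 (adjusted p = 0.960).

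TP53I3, also called PIG3, encodes a quinone oxidoreductase-like enzyme linked to oxidative stress in p53-driven death. It read 6.31 on the U-CH1 TNF array, against 5.16, 5.18 and 5.60 on the U-CH1 controls, and 4.46 on the MUG-Chor1 TNF array, against 4.51, 4.42 and 4.83 on the MUG-Chor1 controls. Its order was that of CDKN1A, highest on the U-CH1 TNF array and within the controls in MUG-Chor1. Its TNF effect did not pass in U-CH1 (0.996 ± 0.30, SE; adjusted p = 0.183) or in MUG-Chor1 (-0.13 ± 0.30, SE; adjusted p = 0.939). BBC3, which encodes the BH3-only death protein PUMA, varied little, at 3.84 on the U-CH1 TNF array, against 3.67 to 3.87 on its controls, and 3.84 on the MUG-Chor1 TNF array, against 3.43 to 3.96 on its controls.

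The remaining genes act in RNA control, metabolism and autophagy. ZMAT3 encodes an RNA-binding zinc finger protein; it read 6.71 on the U-CH1 TNF array against 5.96, 5.96 and 6.81 on the U-CH1 controls, and 5.18 on the MUG-Chor1 TNF array against 4.90, 5.003 and 5.14 on the MUG-Chor1 controls. SESN1 encodes sestrin 1, which restrains the growth kinase complex mTORC1; it read 4.57 on the U-CH1 TNF array against 3.89, 4.72 and 4.89 on the U-CH1 controls, and 3.18 on the MUG-Chor1 TNF array against 3.51, 3.55 and 3.97 on the MUG-Chor1 controls. TP53INP1 encodes a nuclear and autophagy protein; it read 4.39 on the U-CH1 TNF array against 3.10, 3.75 and 4.52 on the U-CH1 controls, and 3.68 on the MUG-Chor1 TNF array against 4.02, 3.82 and 3.76 on the MUG-Chor1 controls. In U-CH1 all 3 genes lay within their controls, which were spread widely (SD 0.49 to 0.71, n = 3). In MUG-Chor1 the TNF array lay just above the controls for ZMAT3 and below them for SESN1 and TP53INP1, and no difference of these genes passed in either line (adjusted p = 0.720 to 0.983).

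The difference between the lines was tested directly. Of the 9 genes 0 passed in limma, where 0.53% of all genes tested did in either direction (0.2% higher and 0.33% lower), and 3 had an unadjusted p under 0.05. All 3 had the lower TNF effect in MUG-Chor1, as had 671 of the 16986 genes tested. They were MDM2 with an effect in MUG-Chor1 minus that in U-CH1 of -1.43 (95% interval -2.44 to -0.41; adjusted p = 0.360), CDKN1A with -1.30 (-2.56 to -0.04; adjusted p = 0.652) and TP53I3 with -1.12 (-2.05 to -0.19; adjusted p = 0.482). The intervals are not adjusted for the number of genes tested.

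Further p53 targets were taken from lists of 37 tested genes in all. Of all genes tested 1.55% rose and 0.93% fell across both lines. The shares were 0.913% and 0.359% in U-CH1, and 1.47% and 1.41% in MUG-Chor1. Counts of 1 in 37 lie near these shares. Across both lines 1 of the 37 rose and none fell: PLK2, a polo-like kinase of the stress response, by 0.78 ± 0.18 (SE; adjusted p = 0.0473), a call that ended without any 1 of the 8 arrays (adjusted p of 0.0501 to 0.344). In U-CH1 SFN alone rose and none fell. SFN encodes 14-3-3 sigma, which holds cells in G2; it read 5.46 on the U-CH1 TNF array, against 3.75, 3.55 and 3.71 on the U-CH1 controls (1.79 ± 0.28, SE; 3.47-fold; adjusted p = 0.0131), and 3.16 on the MUG-Chor1 TNF array, against 3.12, 2.88 and 3.34 on the MUG-Chor1 controls. The death receptor gene FAS came next at 1.67 (adjusted p = 0.0606), with 6.32 on the U-CH1 TNF array, against 4.33 to 4.96 on its controls; it passed without MUG-Chor1 ctrl 2 or ctrl 3 (adjusted p of 0.0406 and 0.0372).

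In MUG-Chor1 SESN2 alone rose among the 37, and none fell, where 1.47% of all genes tested rose and 1.41% fell. SESN2, the paralog of SESN1, read 7.27 on the MUG-Chor1 TNF array, against 4.43, 4.92 and 4.96 on the MUG-Chor1 controls (2.501 ± 0.36, SE; 5.66-fold; adjusted p = 0.00392), and 5.98 on the U-CH1 TNF array, against 5.22, 5.05 and 5.87 on the U-CH1 controls. The third sestrin gene, SESN3, fell in MUG-Chor1 by 3.30 (adjusted p = 0.000505), so the sestrin genes had values in opposite directions there. By position, the U-CH1 TNF array was above all 3 controls for 23 of the 37 and below for 2, against 30.8% and 23.4% of all genes. The MUG-Chor1 TNF array was above for 15 and below for 8, against 35.3% and 23.9% of all genes, which is near that background. In U-CH1 the 37 had a median difference of 0.52, beside 0.04 over all genes tested, and in MUG-Chor1 one of 0.13, beside 0.06.

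Regulators of p53 held 0 limma calls among 9 tested genes in either line and across both. At an unadjusted p under 0.05 there were 0 across both lines, 1 lower in U-CH1 (MDM4) and 0 in MUG-Chor1. The kinase gene ATR had the smallest p across both lines (0.51, adjusted p = 0.362).

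Genes of the ATF4 and CHOP response, which can also drive GDF15, GADD45A and SESN2, moved in MUG-Chor1. Of 10 tested, 5 rose there and none fell, where 1.47% of all genes tested rose and 1.41% fell. The 5 were SESN2 by 2.501, the glutathione-degrading enzyme gene CHAC1 by 2.41 (adjusted p = 0.0171), the serine synthesis gene PSAT1 by 2.21 (adjusted p = 0.00233), the pseudokinase gene TRIB3 by 2.06 (adjusted p = 0.00961) and the mTORC1 inhibitor gene DDIT4 by 2.03 (adjusted p = 0.00355). In U-CH1 0 of the 10 passed in limma and 0 had an unadjusted p under 0.05. The mean level of the 10 was 5.38 on the U-CH1 TNF array, within the 5.22 to 5.86 of its controls, and 6.77 on the MUG-Chor1 TNF array, above the 5.12 to 5.48 of its controls. The difference between the lines passed for PSAT1 (2.496, adjusted p = 0.0315), 1 of the 10, a call that ended without 4 of the control arrays (adjusted p of 0.0503 to 0.0841). CHAC1 no longer passed in MUG-Chor1 without MUG-Chor1 ctrl 1 (adjusted p = 0.0552). Before TNF, 3 of the 10 were lower in MUG-Chor1 than in U-CH1 and 1 was higher, where 8.57% and 10.3% of all genes tested were. The lower ones were PSAT1 (-1.875), CHAC1 (-1.82) and DDIT4 (-0.86), and the higher one was DDIT3 (0.97). The part of the ATF4 and CHOP response in the GDF15 values was not tested.

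Genes that p21 represses through the DREAM complex, which drive mitosis and DNA replication, had 0 limma calls among 12 in each line. In MUG-Chor1 6 were lower and none higher at an unadjusted p under 0.05, where 879 of the 16986 genes tested were lower and 1265 higher, with PLK1, the mitotic kinase, at -2.31 (adjusted p = 0.0684). Their mean level was 4.72 on the MUG-Chor1 TNF array, against 5.29 to 6.41 on its controls, and 5.82 on the U-CH1 TNF array, against 5.42 to 6.14 on its controls. Without MUG-Chor1 ctrl 2, 3 of the 12 passed as lower, PLK1 among them (adjusted p = 0.0405); PLK1 also passed when the arrays were quantile-normalized again (0.0499) and with array weights (0.0361).

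**Figure D3:**
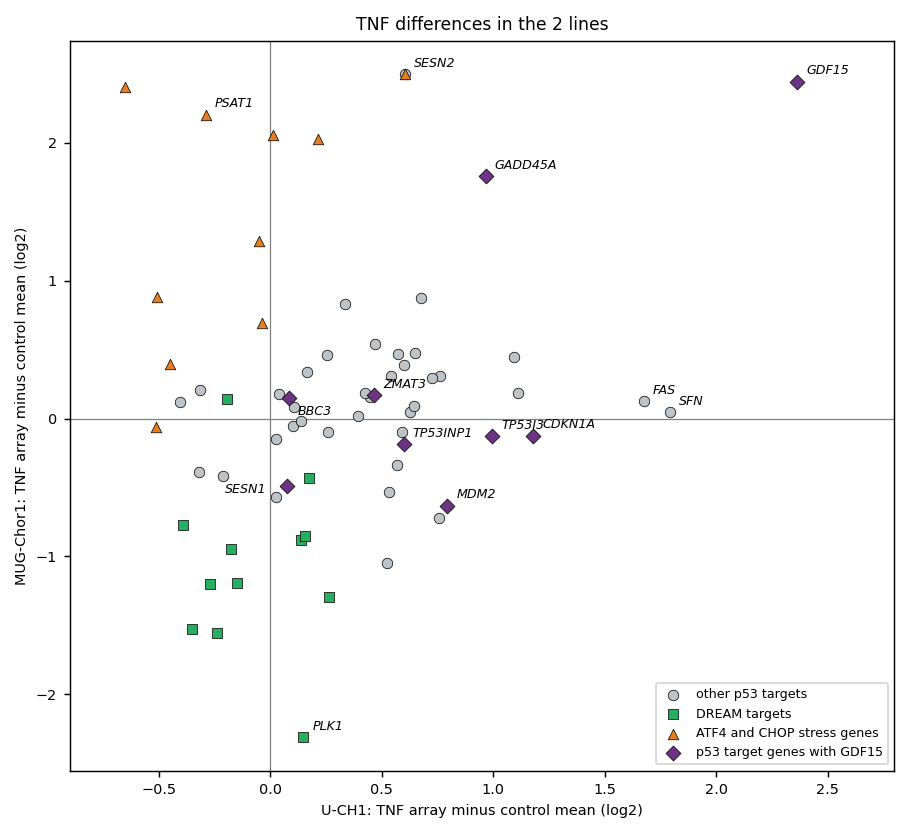
TNF array minus control mean (log2) in U-CH1 (horizontal) and MUG-Chor1 (vertical) for the 9 p53 target genes (purple diamonds), 37 other p53 targets (grey circles), 12 DREAM targets (green squares) and 10 ATF4 and CHOP stress genes (orange triangles, SESN2 also being an other p53 target). GDF15 stands alone at the upper right, the stress genes spread upwards near 0 in U-CH1, and most DREAM targets lie below 0 in MUG-Chor1.

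Before TNF the lines already differed. The comparison of untreated MUG-Chor1 with untreated U-CH1 asked at what level each line held these genes, and 4 of the 9 were lower in MUG-Chor1 and none higher, where 8.57% of all genes tested were lower and 10.3% higher (18.9% in all). ZMAT3 averaged 5.02 ± 0.12 in MUG-Chor1 controls and 6.24 ± 0.49 in U-CH1 controls (SD, n = 3 each; difference -1.23 ± 0.25, SE; adjusted p = 0.00682). GDF15 averaged 5.30 ± 0.49 in MUG-Chor1 and 6.28 ± 0.22 in U-CH1 (-0.98, adjusted p = 0.0238). MDM2 averaged 6.61 ± 0.14 in MUG-Chor1 and 7.42 ± 0.40 in U-CH1 (-0.81, adjusted p = 0.0336), and TP53I3 4.59 ± 0.22 in MUG-Chor1 and 5.31 ± 0.25 in U-CH1 (-0.73, adjusted p = 0.0354).

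These calls were not all firm. The ZMAT3 call held without any 1 of the control arrays, whereas without U-CH1 ctrl 3, MUG-Chor1 ctrl 1 or MUG-Chor1 ctrl 2 it was the only 1 of the 9 called; without U-CH1 ctrl 1, MDM2 and SESN1 were called beside it, and without U-CH1 ctrl 2, GDF15. SESN1 (-0.82, adjusted p = 0.0613) and CDKN1A (-0.77, adjusted p = 0.0897) did not pass. GADD45A stood the other way, at 0.58 (adjusted p = 0.0504), with every MUG-Chor1 control above every U-CH1 control, and BBC3 (-0.06) and TP53INP1 (0.08) lay near 0. By position 5 of the 9 genes had all MUG-Chor1 controls below all U-CH1 controls and 1 had them above, against 18.2% and 18.1% of all genes.

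Of the 37 other p53 targets tested, 13 were lower in untreated MUG-Chor1, 1 was higher and 23 did not pass, where 8.57% and 10.3% of all genes tested were lower and higher; 9 to 13 were lower when any 1 array was left out. TIGAR, which encodes a fructose bisphosphatase that slows glycolysis, read 3.73, 4.12 and 4.08 in MUG-Chor1 controls, against 5.56, 6.07 and 6.52 in U-CH1 controls (-2.07 ± 0.26, SE; adjusted p = 0.000349). BAX, which encodes the pore-forming death protein of mitochondria, read 4.40, 4.65 and 3.74 in MUG-Chor1 controls, against 6.05, 5.94 and 6.33 in U-CH1 controls (-1.84 ± 0.25, SE; adjusted p = 0.000642). The groups did not overlap for either gene.

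Death receptor genes were among the lower ones. EDA2R differed by -1.70 (adjusted p = 0.0114; 0.0535 without U-CH1 ctrl 1 and 0.0505 without MUG-Chor1 ctrl 1), FAS by -1.31 (adjusted p = 0.00613) and TNFRSF10B, the gene of a TRAIL receptor, by -1.20 (adjusted p = 0.00208). In DNA repair and metabolism RRM2B, a ribonucleotide reductase subunit gene, differed by -1.05 (adjusted p = 0.00817), SPATA18 by -1.04 (adjusted p = 0.00603) and RPS27L by -0.998 (adjusted p = 0.00643). The single higher gene was TOB1, an antiproliferative gene, at 1.53 (adjusted p = 0.00669). By role, 7 of 15 death genes and 6 of 13 repair and metabolism genes were lower, against 8.57% of all genes tested. Of 9 arrest and feedback genes 0 were lower in limma, 3 at an unadjusted p under 0.05; a difference between the roles was not tested. The median difference of the 37 was -0.49, against -0.04 over all genes tested. Of the regulators TP73, which encodes a p53 relative that binds the same sites, was higher in MUG-Chor1 (1.45, adjusted p = 0.00101) and MDM4 did not pass (-0.18, adjusted p = 0.557).

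**Figure D4:**
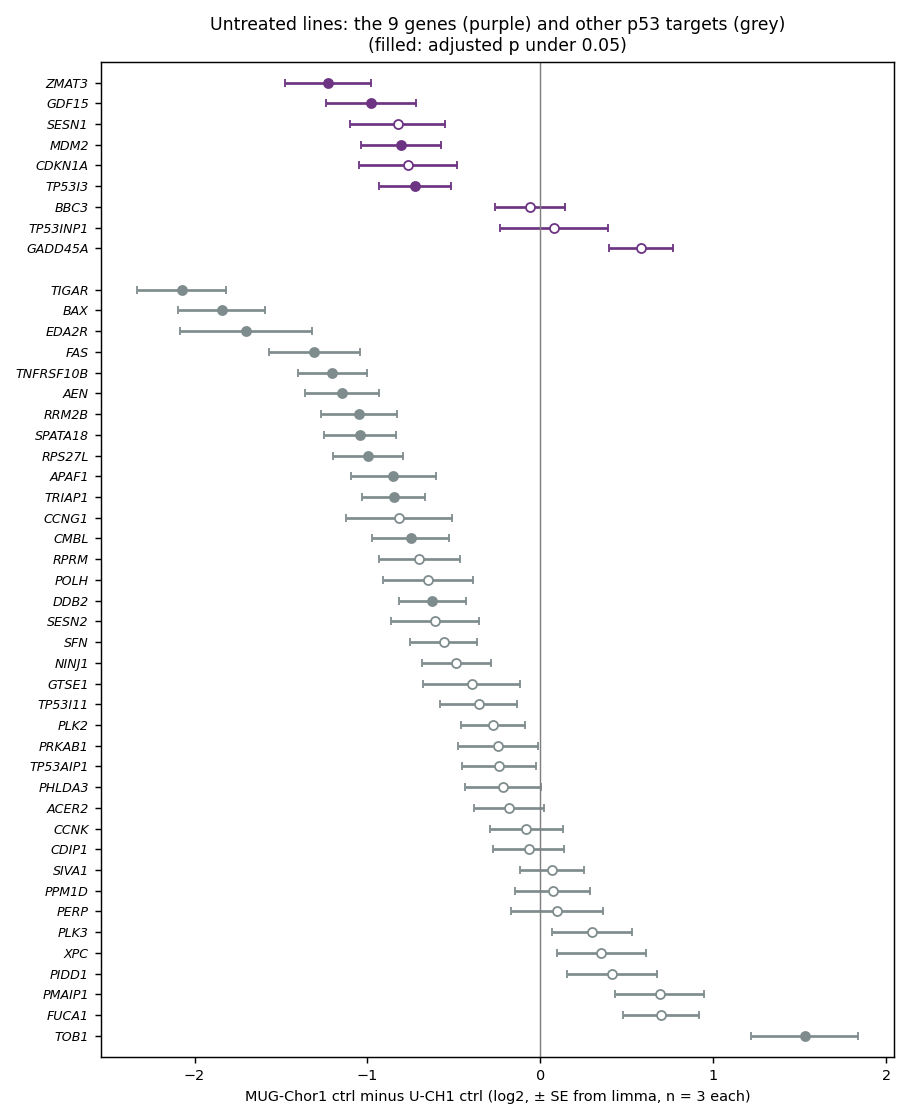
MUG-Chor1 controls minus U-CH1 controls (log2, n = 3 each) for the 9 genes (purple, top) and 37 other p53 targets (grey), sorted by size; bars are SE from limma and filled points have an adjusted p under 0.05. Most points lie left of 0, led by ZMAT3 at -1.23 among the 9 and TIGAR at -2.07 among the others, and GADD45A lies to the right at 0.58.

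The level of each gene over the groups followed from both contrasts. GDF15 was highest on the U-CH1 TNF array, then on the MUG-Chor1 TNF array, then in U-CH1 controls and lowest in MUG-Chor1 controls, where the control groups did not overlap. GADD45A had another order, with the MUG-Chor1 TNF array first, the U-CH1 TNF array next, then MUG-Chor1 controls and U-CH1 controls. CDKN1A, MDM2 and TP53I3 were highest on the U-CH1 TNF array and next highest in U-CH1 controls; for CDKN1A and TP53I3 the MUG-Chor1 TNF array lay within its controls, and for MDM2 below them.

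Likeness of pattern was measured as the root-mean-square difference of values centred on each gene's own mean over the 8 arrays, and is given as a description. The genes most like GDF15 were GBP2 (0.321), NUAK2 (0.398), ABCA9 (0.401), TNFRSF9 (0.407) and IL6-AS1 (0.413, an antisense transcript whose probes were not checked for strand). The nearest of the 9 was TP53I3 (0.910), at rank 690 of the genes tested. The genes most like GADD45A were NCDN (0.145), CLCN7 (0.199), ABCA15P (0.199), WDFY2 (0.238) and L1CAM (0.238), and GDF15 lay at rank 14968 from it (1.03). The measure counts the size of changes as well as their direction. BBC3, which varied little, was nearer to GADD45A (0.715, rank 5366) than GDF15 was.

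Markers of other cells moved with TNF in part. Of 8 leukocyte markers, PTPRC, CD3E, CD3D and MS4A1 lay below 2.57 on every array, and CD68 (0.84, adjusted p = 0.0485) and ITGAM (0.83, adjusted p = 0.0448) rose across both lines. Both calls ended under array weights (adjusted p of 0.0576 and 0.0538); CD68 held without U-CH1 ctrl 3 alone and ITGAM without MUG-Chor1 ctrl 3 alone, and without any other 1 array the adjusted p was 0.0638 to 0.383 for CD68 and 0.0617 to 0.3 for ITGAM. By the same rule 1.55% of all genes tested rose across both lines. The other tested leukocyte markers, CD14 (0.36) and LYZ (-0.15), did not pass. ITGAM lay near or below 2.57 on the controls, at 2.36 to 2.70 in U-CH1 and 2.10 to 2.21 in MUG-Chor1. The leukocyte list had a mean level of 2.90 on the U-CH1 TNF array, against 2.62 to 2.67 on its controls, and of 2.83 on the MUG-Chor1 TNF array, against 2.67 to 2.77 on its controls. Of 7 fibroblast markers, FAP, LUM and DCN rose in MUG-Chor1 and none fell (DCN not without U-CH1 ctrl 1, MUG-Chor1 ctrl 1 or ctrl 2). Of all genes tested 1.47% rose there and 1.41% fell. The other fibroblast markers had differences below 0 in MUG-Chor1: COL1A1 -0.57, COL1A2 -0.07, PDGFRB -0.56 and THY1 -0.81. The median difference of the 7 was -0.07. Their mean level was 4.74 on the MUG-Chor1 TNF array, against 3.30 to 4.01 on its controls. In U-CH1 0 of those 7 passed in limma and 0 had an unadjusted p under 0.05; the mean level was 4.17 on the TNF array, against 3.93 to 4.22 on its controls. Of 6 endothelial markers EMCN lay below 2.57 on every array and KDR fell in MUG-Chor1 (-2.37), where 1.41% of all genes tested fell. The other tested ones did not pass there, with CDH5 at -0.37, CLDN5 at -0.15, TEK at -0.83 and VWF at 0.43. CDH5, TEK and VWF lay above 2.57 on only 2, 3 and 4 of the 8 arrays. The mean level of the 6 was 2.77 on the U-CH1 TNF array, against 2.64 to 2.87 on its controls. It was 2.60 on the MUG-Chor1 TNF array, against 3.07 to 3.31 on its controls. Of 13 chordoma markers 8 fell in MUG-Chor1, where 1.41% of all genes tested fell. In U-CH1 0 passed in limma (4 lower at an unadjusted p under 0.05, as were 645 of the 16986 genes tested). All 13 differences were below 0 in each line. Across both lines 4 of the 13 fell, against 0.93% of all genes tested: ACAN, KRT19, SOX5 and TBXT (-1.30, adjusted p = 0.0344). The calls of ACAN, SOX5 and TBXT ended without MUG-Chor1 ctrl 1, among other settings. KRT19 was also smaller without the MUG-Chor1 TNF array, at -1.03 beside -2.05 with it. Without that array ACAN stood at -0.78, SOX5 at -0.94 and TBXT at -0.69. The part of these markers in the p53 target values was not tested.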

How the data were processed

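Expression was measured on 8 whole-transcript arrays. Per the submitters' processing notes, the authors used RMA and Transcriptome Analysis Console (versions not stated); the log base is not stated, and the deposited values were read as log2 because RMA gives log2 and they span 0.0648 to 12.7. They were not normalized again: after sorting, the arrays departed from the mean array by 0.0240 (median). Of 53617 probe sets 23871 had 1 symbol in the platform annotation, 1842 several and 27904 were not listed; symbols of 22569 were matched by Entrez identifier to RefSeq (GRCh38.p14), which updated 90. The brightest probe set on average stood for a gene. Genes above 2.57 on at least 1 array were tested (16986).

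Tests were two-sided, with limma 3.58.1 in R 4.3.3 (lmFit, eBayes), Benjamini-Hochberg adjustment over all genes tested and a threshold of 0.05. The effect of TNF over both lines was fitted additively on 8 arrays (5 residual degrees of freedom); the other contrasts came from 4 group means (4 residual degrees of freedom). Differences are of log2 values and understate changes near the floor. The labels give no batch, and none was tested. The genes, lists, motifs and alternatives were chosen with earlier results of these data known. The scripts were tested on simulated data. Named beside the 9 genes were MDM4 and CDKN2A, from each list up to 4 called genes per contrast by size (or that with the smallest p), and the 5 genes most like GDF15 and GADD45A; DDIT4, SESN3, GADD45B and GADD45G, the marker names and the levels of TBXT were added after their values were seen. Control arrays carry the same numbers in both lines; deviations of same-numbered controls correlated at 0.043, -0.057 and 0.163, so the numbers were not taken as pairs.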

Additional observations from a re-analysis of the deposited data

Results flagged for a closer look

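The TNF effect differed between the lines, by a test of the difference itself, for 5 of the genes named from the lists, none of them among the 9 p53 target genes. Genes were named in part because they passed this test, so the count of 5 is not a rate. Of all genes tested 0.53% passed it in either direction. Values are the effect in MUG-Chor1 minus that in U-CH1 (log2, limma). The fibroblast marker FAP differed by 3.95 (adjusted p = 0.00336), the aggrecan gene ACAN by -3.31 (adjusted p = 0.0211), the serine synthesis gene PSAT1 by 2.496 (adjusted p = 0.0315), the surface marker gene CD24 by -2.47 (adjusted p = 0.0238) and the keratin gene KRT19 by -2.05 (adjusted p = 0.0364). FAP read 5.71 on the MUG-Chor1 TNF array, against 1.63 to 2.29 on its controls, and 1.75 on the U-CH1 TNF array, against 1.92 to 1.99 on its controls. Of these calls FAP held without any 1 control array. ACAN did not pass without U-CH1 ctrl 3 (adjusted p = 0.0548). PSAT1 did not pass without U-CH1 ctrl 1 or 3 or MUG-Chor1 ctrl 1 or 2 (0.0503 to 0.0841), nor CD24 without U-CH1 ctrl 1 or 2 or MUG-Chor1 ctrl 1 or 2 (0.0503 to 0.0698). KRT19 did not pass without any 1 of the U-CH1 controls, MUG-Chor1 ctrl 1 or MUG-Chor1 ctrl 2 (0.0701 to 0.102). No group had enough samples for a search for outlying arrays.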

How the results depend on the processing

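The rises of GDF15 in each line and across both, and of GADD45A in MUG-Chor1, kept their calls under every alternative run, and 0 of the 9 genes was called for the difference of the TNF effects under any. Leaving out 1 array at a time, 1 to 2 of the 9 were called across both lines (1 without the MUG-Chor1 TNF array, when GADD45A stood at 0.97, adjusted p = 0.133) and 1 to 5 between control lines. Without 1 array the genes called among all tested numbered 200 to 491 across both lines, 106 to 329 in U-CH1, 286 to 668 in MUG-Chor1, 38 to 152 for the difference and 2125 to 3209 between control lines. The mean of the effects of both lines in the group-means model called 739 genes across both lines, against 422 in the additive model, and array weights called 765 in MUG-Chor1, against 489. GADD45A between control lines passed under 6 alternatives (adjusted p of 0.0302 to 0.0493) at 0.56 to 0.61. With the replicate number as a block on the 6 controls, 3248 genes were called between control lines, against 3209, and 5 of the 9 genes, SESN1 added; the block changed no other call of the 9, and not every control correlated best with its own number. Signs turned only for values that passed in neither fit, and only with 1 array left out. Across both lines the range was -0.63 to 0.79 for MDM2, -0.12 to 1.18 for CDKN1A, -0.13 to 0.996 for TP53I3 and -0.19 to 0.60 for TP53INP1, the lowest without the U-CH1 TNF array and the highest without the MUG-Chor1 one, and -0.49 to 0.073 for SESN1; MDM2 was -0.06 without U-CH1 ctrl 1. In U-CH1 SESN1 ranged over -0.23 to 0.27, and in MUG-Chor1 CDKN1A over -0.31 to 0.092. For the difference of the effects GDF15 ranged over -0.19 to 0.28 (-0.03 without U-CH1 ctrl 3) and BBC3 over -0.072 to 0.196. Between control lines TP53INP1 ranged over -0.27 to 0.44 and BBC3 over -0.19 to 0.076. The cause of these changes was not tested. With no detection calls, signal over background is unknown.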
